A study of Mus musculus with 768 samples.

Results

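Arterial cells were chosen among MECA-79-negative endothelial cells of mouse PyMT tumours by 4 genes, Gja4, Gja5, Hey1 and Dkk2. A cell was selected on having at least 2 of the 4 at 10 CPM or more, where CPM is the reads of a gene scaled to the total of the cell. The series has 768 wells on 8 plates, and the MECA-79-negative tumour gate (TU_EC) filled 4 plates of 96 wells, poolA to poolD. On these plates 68, 81, 83 and 73 cells passed the filters on reads and endothelial identity, and 62 of them met the rule. They are called arterial cells here. The reference is the 36, 33, 46 and 39 TU_EC cells of the same plates with none of the 4 genes at 10 CPM. The other 89 cells had 1 of the 4 genes and entered neither class.

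Single CD31-positive, CD45-negative cells were sorted into plates of 96 wells after bead depletion of leukocytes and of EpCAM-positive cells, and each cell was read as a full-length Smart-seq2 library. The MECA-79 antibody marks high endothelial venules, and the other plates hold cells positive for it, 2 plates from lymph node (LN_HEV) and 2 from PyMT tumours (TU_HEV). The labels name neither strain, age, treatment nor animal, and do not say what drives the PyMT transgene. TU_EC was therefore treated as 1 sample, no p-value was made, and the 4 plates show spread that may be technical only.

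Arteries carry blood at high pressure and shear, and their endothelium differs from that of veins in its junctions, matrix and signalling. Arterial identity is set and kept by VEGF and Notch signalling: the Notch ligand Dll4 and receptor Notch1 act upstream of Hey1, and the ephrin-B2 ligand (Efnb2) on arterial cells faces its receptor EphB4 on venous cells. SoxF factors such as Sox17 act in the same programme. Gja4 and Gja5 encode the gap junction proteins connexin 37 and connexin 40, and Dkk2 encodes a secreted Wnt pathway modulator. Tumour vessels are often poorly ordered, and cells at the front of a sprout, the tip cells, share part of the arterial programme.

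The rule chose cells well apart from its threshold. In the members, the second highest of the 4 genes had a median of 304.99 CPM, and its lowest values were 20.5, 35.3 and 42.9 CPM. In the other kept TU_EC cells its highest values were 8.95, 8.39 and 7.69 CPM, and it was above 0 in 13 of them. Hey1 reached 10 CPM in 54 members, Dkk2 in 49, Gja4 in 48 and Gja5 in 14. The most frequent combination was Gja4, Hey1 and Dkk2 in 21 cells, followed by Hey1 and Dkk2 in 12, Gja4 and Hey1 in 11, and all 4 in 8. Gja5 was the most restricted of the 4: no TU_EC cell with only 1 rule gene had it. These values describe the choice and are not results.

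Members were found on every plate. They made up 12 of 68 kept cells in poolA, 19 of 81 in poolB, 14 of 83 in poolC and 17 of 73 in poolD. Over the 4 plates this is 20.3% (exact binomial 95% interval 16.0 to 25.3%), and the intervals of the single plates overlap. The same rule was met by 5 of 98 kept TU_HEV cells (5.10%, interval 1.68 to 11.5%) and by 3 kept LN_HEV cells (1.90% of those kept, interval 0.393 to 5.45%). After every cell was thinned to 50000 counts, 63 TU_EC, 5 TU_HEV and 2 LN_HEV cells met it. The gate sets which cells could be seen, and the labels number the libraries of the MECA-79-positive plates apart from those of TU_EC. Between TU_EC and TU_HEV, both from PyMT tumours, gate and library set therefore cannot be told apart. LN_HEV differs from TU_EC in tissue as well, and from TU_HEV in tissue and plates.

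The members summed to 46431210 counts and the reference to 106371739. A member had a median of 709354.5 counts and 3735.5 genes, against 584277 counts and 2875.5 genes in the reference. With cells thinned to 50000 counts the medians were 3016.5 and 2363 genes, so members had more genes per cell at equal depth too. Cells with fewer than 2000 genes were 5 of the members (8.06%) and 49 of the reference (31.8%). The part of this gap in the results was not tested beyond the comparison without such cells, in which the median of the arterial genes stayed at 1.67 (log2). Intervals given for ratios are exact Poisson 95% intervals, which cover counting error only, since PCR copies without molecular identifiers are not independent molecules.

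Markers of other cell types were low in the members. All 6 leukocyte genes (Ptprc, Cd3e, Cd79a, Lyz2, Cd52, Coro1a) and 5 of 6 epithelial genes had no count, and so did Pdgfrb, Pdgfra and Dcn of the mural and fibroblast list. The smooth muscle actin gene Acta2 stood at 36.2 CPM in members and 11.1 CPM in the reference, with 47.1% of the members' counts in 1 cell, while Cnn1, Notch3 and Des were at 0. Lymphatic markers were the exception: 2 members, 1 of poolA and 1 of poolC, carried at least 3 of 6. These 2 cells had Prox1 at 210.9 and 402 CPM and Ccl21a at 8723 and 6269 CPM, and both entered through Gja4 and Hey1. Without the cells that carried 3 lymphatic markers (2 members and 1 reference cell), the median of the arterial genes was 1.83 (log2).

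Most arterial genes that the rule did not use were higher in the members. Of 21 such genes, 19 were measured (at least 2 CPM over all kept TU_EC cells, Hey2 and Gkn3 fell below), 16 were at least 2-fold higher and 1 was at least 2-fold lower. Over all 11450 genes tested, 11.5% were at least 2-fold higher and 15.3% at least 2-fold lower. The list had a median log2 ratio of 1.82, between 1.13 and 2.53 on single plates, against 0.03 over all genes. For 11 of the 19, the 4 plate values of the members all lay above the 4 of the reference, and for 1 they all lay below. That happened for 3.51% and 4.1% of all genes.

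**Figure D1:**
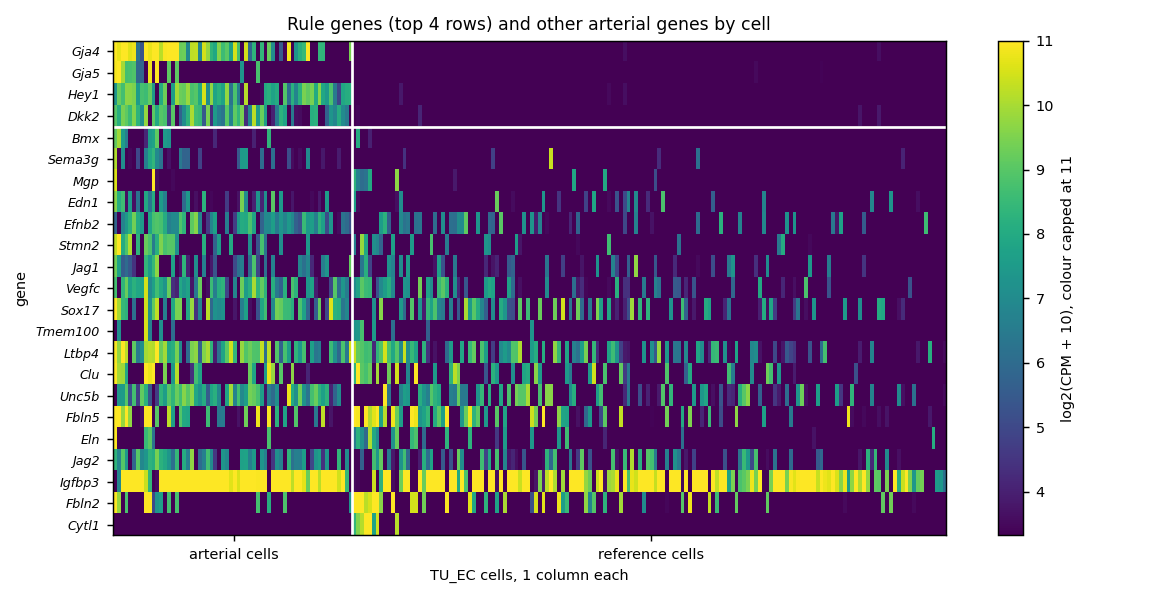
Heat map of the 62 arterial cells and the reference cells (columns) for the 4 rule genes and 19 other arterial genes (rows), coloured by log2(CPM + 10). The rule genes split the classes by construction, Efnb2, Ltbp4, Unc5b and Vegfc fill most arterial columns, and Mgp, Tmem100 and Eln are bright in few cells.

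Efnb2 (chr8:8617434-8661242, minus strand, GRCm38), the arterial ephrin-B2 ligand, measured 192.4, 187.1, 127.4 and 141.8 CPM in the members of poolA to poolD. In the reference of the same plates it measured 26.7, 19.8, 20.9 and 27.6 CPM. No plate value of one class reached the other, and the pooled ratio was 6.87 (interval 6.56 to 7.19). It reached 10 CPM in 52 of 62 members (83.9%) and in 35 reference cells (22.7%), and in 82.3% and 22.1% after thinning.

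Sox17, a SoxF transcription factor, stood at 422, 314.9, 388 and 169.05 CPM in the members and at 102.8, 40.5, 94.1 and 96.8 CPM in the reference. The ratio was 3.73 (3.63 to 3.83) with no overlap of plates. Its relatives Sox7 (485 against 236.6 CPM) and Sox18 (901 against 441 CPM) were each 2.05-fold higher, also without overlap. Of 17 endothelial transcription factors measured, 6 were at least 2-fold higher and 2 lower, against 11.5% and 15.3% of all genes. The 6 were Sox17, Sox7, Sox18, Gata2, Tbx3 and Prox1, and Prox1, the lymphatic master regulator, had 50.0% of its members' counts in 1 cell. Tbx3 had 56.9% in 1 cell, and its ratio was 0.986 without that cell. The 2 lower ones were Meox2 and Foxc2.

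Bmx, a non-receptor tyrosine kinase of large-vessel and arterial endothelium, measured 115.1, 12.8, 61.1 and 16.6 CPM in the members, against 0, 0, 0 and 11.8 CPM in the reference. It was detected at 10 CPM in 10 members and 1 reference cell, so the ratio of 16.7 describes a minority of the members. Sema3g, a secreted semaphorin, measured 18.1, 27.0, 141.5 and 34.4 CPM against 1.63, 11.8, 0 and 1.20 CPM. One cell held 45.6% of the members' Sema3g counts and 1 reference cell 78.3% of the reference counts, and the ratio of 15.7 became 8.73 without the first and 72.0 without the second. By plate, the log2 ratio of Sema3g was 2.49 without poolC and 6.21 without poolB. For Bmx, 1 reference cell held 98.98% of the reference counts, and the log2 ratio was 2.96 without poolA, 3.40 without poolC and 10.60 without poolD, where the reference had no count and was set to the floor of 3 counts.

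Secreted and matrix-bound products formed most of the remaining list. Vegfc, a growth factor for lymphatic and blood endothelium, stood at 226.5 CPM against 60.3 CPM, a ratio of 3.76 (3.64 to 3.88). Ltbp4, which binds latent TGF-beta in the matrix, stood at 501 against 142.4 CPM, and Edn1, the vasoconstrictor endothelin 1, at 87.1 against 12.5 CPM. For these 3 genes every plate of the members lay above every plate of the reference. Igfbp3, a binding protein of insulin-like growth factors, was 1.96-fold higher at 7223 against 3686 CPM, again without overlap.

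Several large-artery genes rested on few cells. One cell held 75.6% of the members' counts of Mgp, an inhibitor of vessel calcification, 81.7% of those of Tmem100 and 70.0% of those of the elastin gene Eln. Without that cell the ratio of Mgp moved from 12.9 to 3.20, that of Tmem100 from 3.54 to 0.660 and that of Eln from 2.23 to 0.684. Without poolD the log2 ratio of Mgp was 3.06. Fbln5, which takes part in elastic fibre assembly, had a ratio of 2.82 that became 1.66 without its top cell. Fbln2 was lower in the members (170 against 330.7 CPM). Cytl1 had no count in any member and 68.4 CPM in the reference, at least 1059-fold lower when the members are set to the floor of 3 counts, and it was carried by 8 reference cells. This bound fell to 654-fold without the reference cell that held 38.5% of the counts, and the log2 value moved from −10.05 to −7.31 without poolD.

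Genes were named by a rule: 50 CPM or more in the class where they were higher, detection in 30% or more of its cells, and a 1.5-fold difference or more on every plate. It was met by 1.04% of the genes tested in the higher direction and by 0.297% in the lower. The 12 with the largest ratio among the higher were St8sia6, Lrrc3b, Npr3, Sema3g, Smpdl3a, Cxcl12, Mcf2l, Edn1, Agmo, Efnb2, Stmn2 and Slc45a4, of which 4 were in the arterial list. The 12 among the lower were Odc1, Slc1a5, Tgtp1, Pfkl, Serpinb9, Meox2, Igtp, Slc16a3, Myc, Gbp4, Stmn1 and Map1s.

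**Figure D2:**
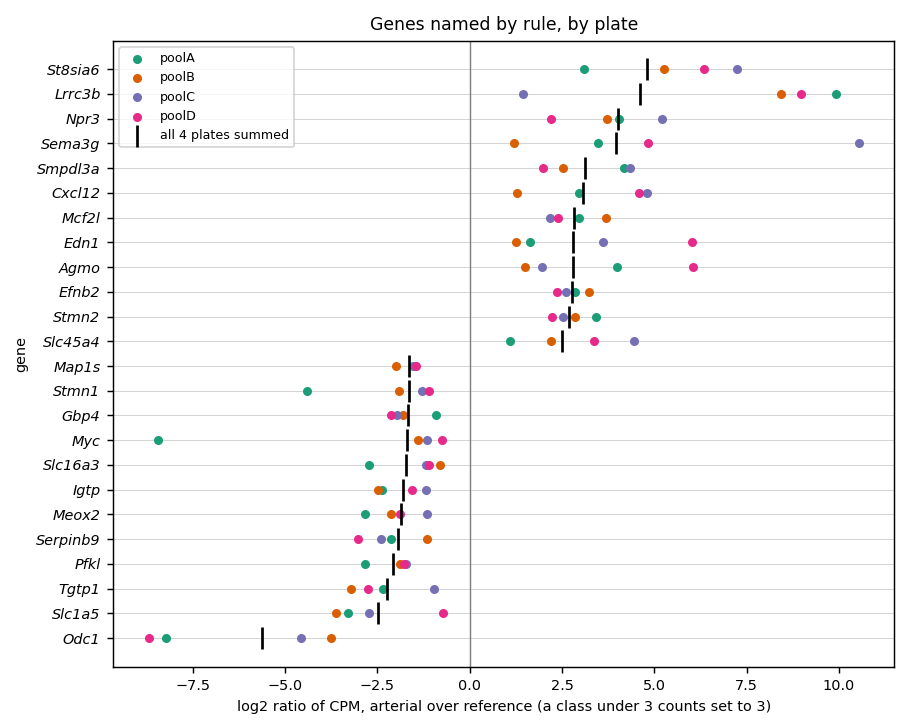
Log2 ratio of CPM, arterial over reference, for the 24 genes named by the rule, with 1 point for each of the 4 plates and a bar for the plates summed. All points of the upper 12 genes lie right of 0 and all of the lower 12 left of 0, as the rule requires, and Efnb2 and Stmn2 spread least among the upper genes.

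St8sia6, which adds sialic acid to glycans, had the largest ratio. It measured 97.9, 87.5, 96.2 and 144.6 CPM in the members and 11.5, 2.29, 0.634 and 1.77 CPM in the reference, a ratio of 27.8 (25.2 to 30.8), and its log2 ratio of 4.80 was 6.20 without poolA. It reached 10 CPM in 31 of the 62 members and in 9 reference cells. Npr3, the clearance receptor of natriuretic peptides, measured 33.5, 122.7, 48.0 and 9.16 CPM against 2.03, 9.26, 1.30 and 2.01 CPM, so poolD of the members overlapped poolB of the reference. Lrrc3b, a leucine-rich repeat membrane protein, was at 0 in the reference of 3 plates and at 7.87 CPM in poolC, against 21.5 to 115.7 CPM in the members.

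Cxcl12 (chr6:117168535-117181367, plus strand), the chemokine ligand of Cxcr4, stood at 1155, 946, 2040 and 1348 CPM in the members and at 147.7, 386, 73.4 and 56.1 CPM in the reference. No plates overlapped, and the ratio was 8.45 (8.31 to 8.59). One reference cell held 45.4% of the reference counts, and the ratio was 15.3 without it, while the log2 ratio moved from 3.08 to 4.06 without poolB. It reached 10 CPM in 71.0% of members and 23.4% of reference cells, and in 71.0% and 24.0% after thinning. Its receptors were closer between the classes: Cxcr4 at 32.4 against 17.4 CPM and Ackr3, a scavenging receptor, at 111.5 against 138.3 CPM, both with overlapping plates. Of the 9 chemokine genes measured, Cxcl12 alone was at least 2-fold higher, and Cxcl9, Cxcl10 and Ccl2 were at least 2-fold lower, against 11.5% and 15.3% of all genes. Cxcl9 stood at −0.90 (log2) without poolB.

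The 250 bases before the transcription start of the leading genes were read for the core letters TGGGAA, recognised by the Notch effector RBPJ, on both strands. Of 12 named higher genes, 9 had a RefSeq (GRCm38.p6) entry, with 14 windows in all, and 15 arterial-list genes had 18 windows. The letters were in 4 of the 14 windows and 3 of the 18, against 21.6% of all 32851 such windows. By gene, they were in 3 of the 9 and 3 of the 15. Windows of 1 gene are not independent: Mcf2l had several, and more than 1 of them held the letters. The matches of the arterial list include Hey2, which fell below 2 CPM. Windows of 2 leading genes and of the arterial kinase Bmx that hold the letters are shown, each 5′ to 3′ on the strand of the gene, with the matching letters (or their complement TTCCCA) in capitals.
Cxcl12, chr6:117168285-117168534, plus strand: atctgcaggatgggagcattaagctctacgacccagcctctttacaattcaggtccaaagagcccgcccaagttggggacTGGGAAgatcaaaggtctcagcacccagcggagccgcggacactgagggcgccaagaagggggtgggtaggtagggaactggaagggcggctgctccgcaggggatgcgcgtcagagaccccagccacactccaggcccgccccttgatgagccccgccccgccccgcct
Lrrc3b, chr14:15438988-15439237, minus strand: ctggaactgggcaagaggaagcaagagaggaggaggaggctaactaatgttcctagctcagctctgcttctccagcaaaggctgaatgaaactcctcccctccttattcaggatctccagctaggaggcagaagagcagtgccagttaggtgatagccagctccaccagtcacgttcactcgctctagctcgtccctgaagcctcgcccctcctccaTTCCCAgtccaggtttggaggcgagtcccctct
Bmx, chrX:164258194-164258443, minus strand: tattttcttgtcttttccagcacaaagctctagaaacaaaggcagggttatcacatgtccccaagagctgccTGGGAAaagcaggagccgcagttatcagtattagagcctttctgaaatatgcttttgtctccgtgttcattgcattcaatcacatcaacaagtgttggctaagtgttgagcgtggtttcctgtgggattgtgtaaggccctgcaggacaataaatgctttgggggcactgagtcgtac
The core letters of SOX factors (ATTGTT) were in none of the 14 windows of the named genes and none of the 18 of the arterial list, against 9.42% of all windows. The letters GGGTGG, bound by KLF factors, were in 3 of the 14 and 9 of the 18, against 28.1% of all. The ETS letters CCGGAAG were in 1 of the 14 and none of the 18, against 6.91% of all. A match describes the sequence and does not show binding.

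Most Notch pathway genes lay within 2-fold of the reference. Of 15 measured, 4 were at least 2-fold higher (Jag1, Jag2, Nrarp, Rfng) and 1 lower (Dll1), against 11.5% and 15.3% of all genes, with a list median of 0.57 (log2) and a plate range of −0.09 to 0.86. Jag1, a ligand that endothelial cells present to mural cells, measured 107.7, 41.1, 141.96 and 62.1 CPM against 18.5, 43.6, 16.9 and 8.84 CPM, so poolB showed no difference, and the log2 ratio was 2.76 without it. Jag2 (128.4 against 59.6 CPM) and the receptor Notch1 (537 against 318.1 CPM, a ratio of 1.69) did not overlap between classes on any plate. Dll4 was 1.88-fold higher at 566 against 301.7 CPM with overlapping plates. The target Hes1 stood at 181.9 against 122.1 CPM, and Nrarp, a feedback inhibitor, at 171.9 against 83.7 CPM.

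The BMP and TGF-beta list had the second highest median, 0.87 (0.48 to 1.01 on single plates). Of its 15 genes, 6 were at least 2-fold higher and 2 lower, against 11.5% and 15.3% of all genes. Smad6, an intracellular inhibitor of BMP signals, measured 3.87, 16.2, 28.6 and 17.9 CPM in the members and 3.35, 0, 3.17 and 0.161 CPM in the reference. Smad7, the related inhibitor, stood at 42.5 against 13.4 CPM. The receptor Bmpr2 was 2.58-fold higher (229.2 against 88.8 CPM), the target Id1 2.41-fold higher (281.2 against 116.5 CPM) and the ligand Bmp6 9.13-fold higher (25.7 against 2.81 CPM). In these 5 genes no plates overlapped, but single libraries moved the sizes: without the reference cell with most counts the ratio of Bmp6 was 15.4, without poolA the log2 ratio of Smad6 was 3.99, and without poolC that of Smad7 was 2.37. Id2 was the sixth, and Tgfbr3, a TGF-beta co-receptor, was among the lower genes. The list median was 0.54 among cells with at least 2000 genes.

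Guidance and growth factor receptors differed gene by gene. Efna1, an ephrin-A ligand, measured 811, 900, 748 and 720 CPM in the members and 254.7, 330, 233.4 and 287.6 CPM in the reference, a ratio of 2.91 (2.87 to 2.96) with the plates far apart. Unc5b, a netrin receptor of arterial and tip cells, was 2.84-fold higher (216.8 against 76.2 CPM). Nrp1, the co-receptor associated with arteries, was 1.90-fold higher (547 against 288.01 CPM), and its relative Nrp2, associated with veins and lymphatics, was 2.33-fold lower (48.7 against 113.5 CPM), both without overlap. Kdr, the main VEGF receptor, was 1.81-fold higher at 716 against 395 CPM. Ephb4, the venous receptor of ephrin-B2, was at 160 against 107.7 CPM with overlapping plates.

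Of the vasoactive, flow and mural recruitment lists, most genes lay within 2-fold, read against 11.5% higher and 15.3% lower over all genes. Among 13 vasoactive genes 3 were higher (Npr3, Edn1, Ptgis) and 3 lower (Adm, Npr1, Ptgs1), of which Ptgis had a ratio of 1.28 without its top member cell, while Nos3, the endothelial nitric oxide synthase, stood at 233.7 against 204.9 CPM. Among 8 flow-responsive genes, Mef2a (273.5 against 124.1 CPM) and Thbd, thrombomodulin (172.5 against 80.3 CPM), were at least 2-fold higher, with Thbd at 0.88 (log2) without poolA and 0.60 without poolB. Klf2, a shear-induced factor, stood at 116.9 against 70.9 CPM and Klf4 at 40.7 against 38.1 CPM, both with overlapping plates. Among 16 mural recruitment and matrix genes, 2 were higher (Hbegf and Fn1) and 1 lower (Pdgfa, 1.53-fold lower without the reference cell with most counts). Pdgfb, which draws pericytes, was 1.95-fold higher (115.6 against 59.4 CPM) with overlapping plates. Gja1, the connexin 43 gene that the rule did not use, was 2.26-fold higher at 948 against 419 CPM, and was the 1 of 12 junction genes to pass 2-fold upward, with Jam2 and Gjc1 lower.

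**Figure D3:**
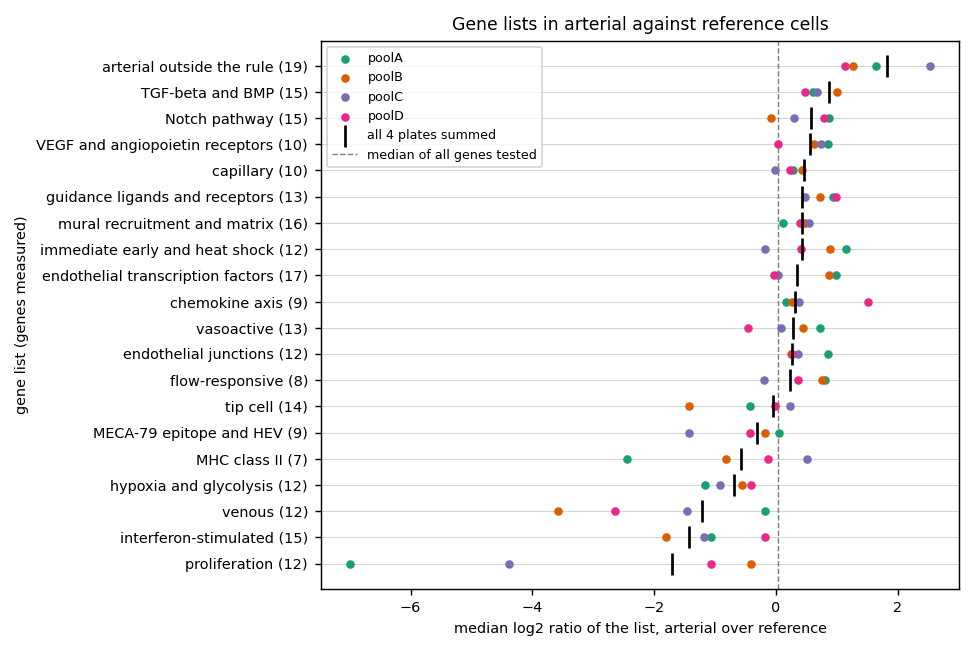
Median log2 ratio, arterial over reference, of 20 gene lists, with 1 point for each of the 4 plates, a bar for the plates summed and a dashed line at the median of all genes (0.03). The arterial list lies highest at 1.82, and the proliferation, interferon and venous lists lie lowest at −1.71, −1.43 and −1.21.

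Of 12 venous genes measured, 7 were at least 2-fold lower than in the reference and none higher, against 15.3% and 11.5% of all genes, with a median of −1.21 (−3.59 to −0.18 on single plates). Selp, the adhesion molecule P-selectin, measured 0, 0, 0.280 and 53.6 CPM in the members, where 1 cell held 99.6% of its counts, and 448, 321.8, 796 and 381.9 CPM in the reference. Ackr1, the venular atypical chemokine receptor, had 1 count in all members and stood at 234.2 CPM in the reference. Aplnr, the apelin receptor, was 4.43-fold lower and Vwf 2.46-fold lower. The reference included 28 cells (18.2%) with at least 2 of Ackr1, Selp, Nr2f2 and Vcam1 at 10 CPM, against 1 of 62 members (1.61%). Those 28 reference cells were picked by 4 genes of this list, so the move of the list without them is in part fixed by the choice: its median was then −0.14, Selp stood at −2.91 and Vwf, which the choice did not use, at −0.14 (log2). Without poolD, which held the 1 member with most Selp, the log2 ratio of Selp was −12.58, and that of Aplnr was −2.82 without poolB.

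In the tip cell list, 1 of 14 genes was at least 2-fold higher and 6 were lower, against 11.5% and 15.3% of all genes. Esm1, a secreted proteoglycan of sprouting vessels, measured 304.2, 496, 388 and 220 CPM in the members and 68.8, 210.9, 25.9 and 49.7 CPM in the reference, a ratio of 4.20 (4.10 to 4.31), with a log2 ratio of 2.69 without poolB. Apln, Kcne3, Trp53i11, Chst1, Adm and Pgf were instead at least 2-fold lower. Apln, the ligand of Aplnr, measured 86.6, 155.7, 233.05 and 220.9 CPM against 574, 613, 459 and 234.9 CPM, so the highest plate of the members lay just under the lowest of the reference. Pgf, the placental growth factor, stood at 1.62 against 57.0 CPM. At least 2 of Esm1, Apln, Kcne3 and Nid2 reached 10 CPM in 45 of 62 members (72.6%, interval 59.8 to 83.1%) and in 99 reference cells (64.3%, interval 56.2 to 71.8%). The list median of −0.06 was 0.19 without poolB.

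Set directly beside tip comparison cells of TU_EC (51.1% of the kept cells, with at least 2 of those 4 genes, neither members nor venous by the rule above), 16 of 19 arterial genes were at least 2-fold higher in the members, against 12.1% of all genes. Sox17 stood at 314.1 against 71.5 CPM, Cxcl12 at 1351 against 211.2 CPM and Fbln5 at 846 against 76.9 CPM. Igfbp3 (7223 against 6824 CPM) and Dll4 (566 against 468 CPM) were nearly level between them. Of the 12 venous genes, 5 were at least 2-fold higher in the members than in these tip comparison cells, with a list median of 0.66, and the tip class leaves out cells with 2 venous genes by its rule. Set beside 28 TU_EC cells with venous genes and neither tip nor member status, 11 of 19 were at least 2-fold higher, against 26.8% of all genes. Efnb2 stood at 1.60 CPM and Dll4 at 13.2 CPM in those cells, and Unc5b at 0.485 CPM. The matrix genes went the other way: Fbln5 reached 1616 CPM and Fbln2 1398 CPM in the venous cells, against 846 and 170 CPM in the members. Many tip and venous cells are also reference cells, so these comparisons are not independent of the main one.

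Of 12 proliferation genes, 9 were at least 2-fold lower in the members and none higher, against 15.3% and 11.5% of all genes, with a median of −1.71 that ran from −7.0006 to −0.41 on single plates. At least 3 of the 12 proliferation genes reached 10 CPM in 4 of 62 members (6.45%, interval 1.79 to 15.7%) and in 29 reference cells (18.8%, interval 13.0 to 25.9%), and in 6.45% and 19.5% after thinning. These intervals overlap and cover counting of cells of 1 sample only. Mki67, a marker of cycling cells, measured 0, 8.74, 0 and 17.1 CPM in the members and 46.4, 33.4, 29.9 and 22.0 CPM in the reference. Where the members of a plate had no count, as for Mki67 in poolA and poolC, the floor of 3 counts sets the plate ratio. The replication helicase subunit Mcm5 was 7.54-fold lower with overlapping plates, and 1 cell held 58.1% of its members' counts. Without poolD the log2 ratio of Mki67 was −3.37. Without the cells that carried 3 such genes, a choice made on the same genes, the list median moved from −1.71 to −0.53, and Mki67 was higher in the members at a log2 ratio of 1.36.

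Of the 12 genes named as lower, 5 act in growth or metabolism and were put together after their values were seen. Odc1 (chr12:17544794-17551505, plus strand), which makes polyamines, measured 0.628, 3.78, 4.39 and 0 CPM in the members and 187.8, 50.6, 103.9 and 98.2 CPM in the reference. It reached 10 CPM in 2 members and 64 reference cells, and the ratio corresponds to 49.1-fold lower. Myc, a transcriptional activator of growth genes, stood at 0, 12.1, 57.6 and 31.9 CPM against 108.6, 32.0, 127.4 and 53.6 CPM, with overlap between plates. Slc1a5, a glutamine transporter, was 5.58-fold lower (14.6 against 81.7 CPM), the lactate exporter gene Slc16a3 3.31-fold lower and the phosphofructokinase gene Pfkl 4.20-fold lower (47.0 against 197.4 CPM), each without overlap. Without poolA the log2 ratio of Slc16a3 was −1.08 and that of Odc1 −5.01. It was −6.31 for Odc1 without poolB and −3.17 for Slc1a5 without poolD. Without the cells that carried 3 proliferation genes, the log2 ratio of Slc1a5 was −1.46. In the fixed hypoxia and glycolysis list of 12 genes, 4 were at least 2-fold lower (Adm, Bnip3, Ankrd37, Egln3), none was higher, the other 8 lay within 2-fold and the median was −0.70. None of those 4 encodes a glycolytic enzyme: Adm encodes the peptide adrenomedullin, Bnip3 a mitochondrial protein of mitophagy and Egln3 an oxygen-sensing prolyl hydroxylase.

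Of 15 interferon-stimulated genes measured, 9 were at least 2-fold lower and none higher, against 15.3% and 11.5% of all genes, with a median of −1.43 (−1.81 to −0.18 on single plates). Igtp, an interferon-inducible GTPase, measured 39.6, 44.1, 66.6 and 84.3 CPM in the members and 205.4, 247.7, 151.9 and 247.9 CPM in the reference. Tgtp1, of the same family, was 4.68-fold lower and the guanylate-binding protein gene Gbp4 3.20-fold lower. Detection differed less than level for Igtp and Gbp4. Igtp reached 10 CPM in 33.9% of members and 31.8% of reference cells, Gbp4 in 38.7% and 40.3%, and Tgtp1 in 21.0% and 34.4%. With all cells thinned to 50000 counts, the log2 ratio of Gbp4 was −0.84. At least 3 of the 15 genes reached 10 CPM in 72.6% of members and 65.6% of reference cells, and in 69.4% and 62.3% after thinning. The 28 venous comparison cells carried high levels of these genes, with Tgtp1 at 829 CPM and Igtp at 408 CPM. Without the 28 reference cells that had 2 venous genes, a set that only partly overlaps with those, the list median was −1.28, and with all cells thinned to 50000 counts it was −0.71. Serpinb9, a granzyme B inhibitor named among the lower genes, stood at 726 CPM in the venous comparison cells. It reached 10 CPM in 27.4% of members and 27.9% of reference cells. Its log2 ratio of −1.95 was −0.70 without the reference cells that had 2 venous genes.

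Capillary, MHC class II and immediate early genes showed small or uneven differences, against the same shares of 11.5% and 15.3% over all genes. Of 10 capillary genes 2 were higher, Cd300lg (450 against 171.3 CPM) and Sgk1, and 1 lower, Car4. Gpihbp1, the capillary anchor of lipoprotein lipase, was 1.76-fold higher without overlap of plates. Of 7 MHC class II genes, 2 were lower (Ciita and H2-Eb1) and none higher, with list medians between −2.45 and 0.51 on single plates. Of 12 immediate early and heat shock genes, which also respond to tissue dissociation, 2 were higher (Fosb and Atf3), and Fos stood at 1998 against 1010 CPM. Of 9 measured genes of the MECA-79 epitope and of high endothelial venules, 1 was higher (Gcnt1, with a ratio of 1.31 without its top cell) and 1 lower (B3gnt3), and Chst4, Fut7 and Glycam1 fell below 2 CPM.

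Some arterial genes, but not all, rose with the number of rule genes in a cell. Over the reference cells and the 89, 29 and 33 cells with 1, 2, and 3 or 4 rule genes, Efnb2 stood at 23.6, 70.5, 120.8 and 201.7 CPM. Sema3g stood at 3.42, 6.91, 19.7 and 86.1 CPM, and Cxcl12 at 160, 271.8, 835 and 1846 CPM. Of 19 arterial genes, 9 were higher at each step (Efnb2, Sema3g, Jag1, Jag2, Ltbp4, Vegfc, Edn1, Unc5b, Igfbp3), against 5.82% of all genes. Bmx (2.76, 0.299, 15.7 and 75.1 CPM), Stmn2 (25.4, 16.5, 47.9 and 275.5 CPM) and Fbln5 (300, 313.5, 241.3 and 1426 CPM) were instead high mainly in the cells with 3 or 4. The cells with 1 rule gene thus lay between the reference and the members for Efnb2 and Cxcl12. They lay below the reference for Bmx and close to it for Fbln5. Most members with Gja5 are among the cells with 3 or 4 rule genes, so this top step shares cells with the split by Gja5 below.

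**Figure D4:**
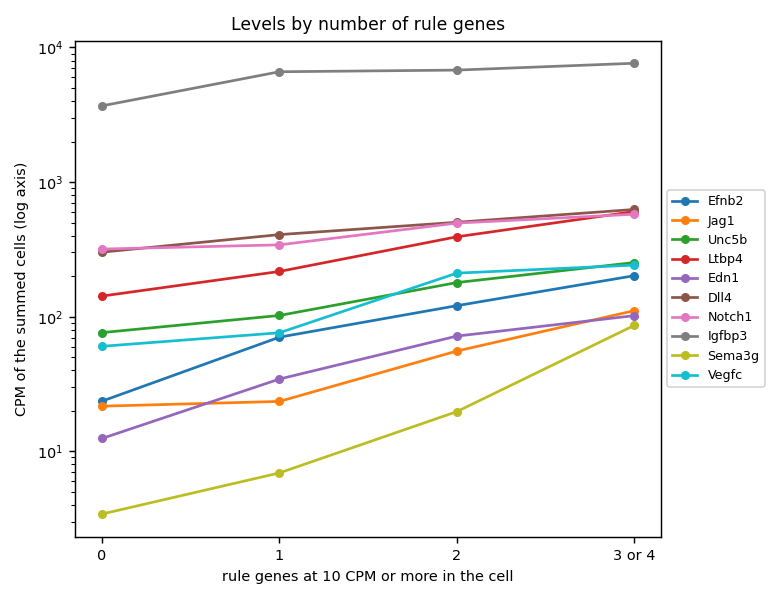
CPM (log axis) of 10 genes, picked among those that rose at each step, in TU_EC cells grouped by how many of the 4 rule genes reached 10 CPM. All 10 lines rise from left to right, Efnb2 from 23.6 to 201.7 CPM and Igfbp3 from 3686 to 7636 CPM with most of its rise at the first step.

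The members fell into cells with and without Gja5, the connexin 40 gene of larger arteries. They numbered 14 and 48, with 2, 4, 4 and 4 cells with Gja5 on the 4 plates, so plate values rest on few cells. Since Gja5 made the split, it is not a result. All but 2 of the 14 cells with Gja5 had more than 2 rule genes, and 8 had all 4. These cells are thus also in the top step of the comparison by number of rule genes. The 2 comparisons are not independent, and Gja5 was not tested apart from the number of rule genes. Most other arterial genes were higher in the cells with Gja5. Of the 19 arterial genes 13 were at least 2-fold higher and 1 lower, with a median log2 ratio of 1.48, against 20.7% higher and 33.4% lower and a median of −0.23 over all genes. Fbln5 stood at 3276 against 338.6 CPM, Bmx at 182.6 against 17.5 CPM, Sema3g at 180 against 27.2 CPM, Stmn2 at 511 against 91.6 CPM and Cxcl12 at 3660 against 869 CPM. Efnb2 (218.1 against 150 CPM), Unc5b (243.4 against 211.2 CPM) and Vegfc (296.7 against 211.9 CPM) were close in both. The median of the list was 0.69 without poolC. One poolC cell with Gja5 held 45.6% of all members' Sema3g counts, and it measured 1071.8 CPM of Sema3g and 15792.6 CPM of Fbln5. The values of this split without that single cell were not computed.

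By rule, 6 genes were named each way in this split, without a requirement on plates since no plate had 5 cells on each side. They have the largest ratios, and the limits on level and detection applied only to the side where they are higher. Values near 0 on the other side are therefore largely fixed by this choice. Serpinf1, the secreted pigment epithelium-derived factor, measured 1108, 94.7, 540 and 203.95 CPM in the cells with Gja5 and had no count in the 48 without. Only 42.9% of the 14 cells with Gja5 had a count of Serpinf1, and 1 cell held 39.0% of its counts. Htra1, a secreted serine protease, measured 399, 360.9, 1029 and 53.1 CPM against 12.1, 0, 0.374 and 76.0 CPM. Ptprr, a tyrosine phosphatase, measured 70.4, 120, 106.98 and 127.5 CPM against 0, 14.1, 0 and 5.82 CPM. Pcp4l1, Fblim1 and the cyclin gene Ccnd2 completed the higher set. In the cells without Gja5, Bok, a BCL-2 family gene, measured 130, 223.4, 176.6 and 226.4 CPM, with a count in 64.6% of them, and had no count in the 14 cells with Gja5. Prcp, Hspb8, Acot7, Gem and Arrdc1 had at most 0.249 CPM in those 14.

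Of 12 proliferation genes, 11 were at least 2-fold lower with Gja5, against 33.4% of all genes. At least 3 of these genes reached 10 CPM in only 4 of the 62 members, so this difference rests on few cells. Of 14 tip cell genes, 6 were at least 2-fold lower and 1 higher, a share near that of all genes, with a median of −0.87. Among the tip genes, Kcne3 stood at 17.8 against 325.3 CPM and Apln at 25.3 against 208.8 CPM, while Esm1 stood at 442 against 338.4 CPM. Outside this list, the endothelin receptor gene Ednrb stood at 79.0 against 519 CPM. Of 15 interferon-stimulated genes, 9 were at least 2-fold higher with Gja5 and 1 lower, against 20.7% higher over all genes, with Gbp2 at 326.02 against 69.7 CPM. With 14 cells, a few of them can set such a value.

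**Figure D5:**
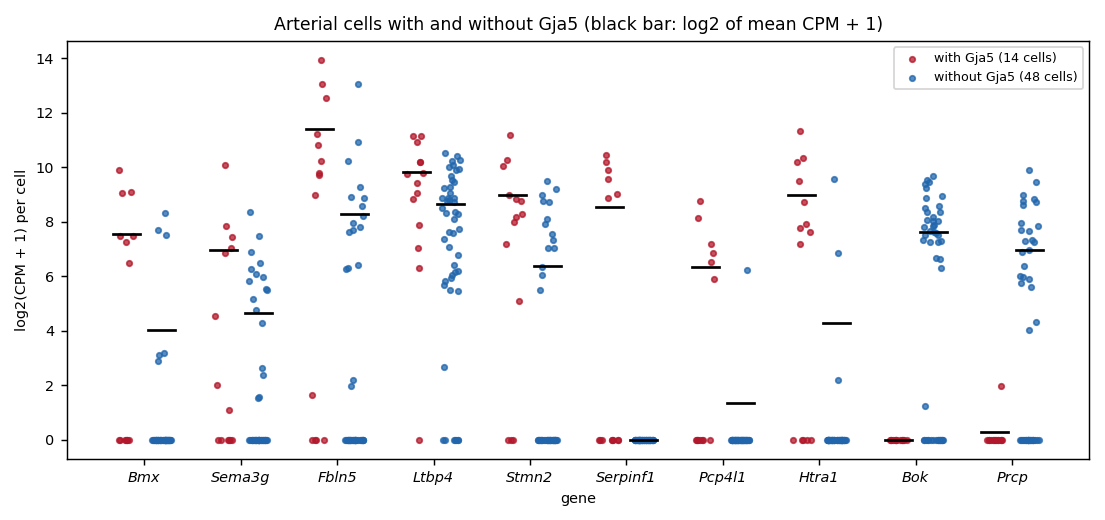
Log2(CPM + 1) of 10 genes in each of 14 arterial cells with Gja5 and 48 without, 1 point a cell, with a bar at the log2 of mean CPM + 1. Serpinf1, Htra1, Bmx and Fbln5 are detected in a larger share of the cells with Gja5 (71.4% against 35.4% for Fbln5), Bok and Prcp in a larger share of those without, and Ltbp4 in most cells of both. Serpinf1, Htra1, Bok and Prcp were named for the size of their ratio in this split.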

How the data were processed

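Both deposited tables hold raw read counts, with genes in rows and single cells in columns, per the labels and file headers. Per the submitters' processing notes, FastQC was version 0.11.4, STAR version 2.4.1b and Subread version 1.4.6-p2, and the build was mm10 (GRCm38). Annotation and strandedness of counting are not given in the sources at hand, so overlapping and antisense genes and near-identical copies may share reads. cDNA was amplified with 23 PCR cycles, without molecular identifiers.

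A kept cell had 50000 counts and 1000 genes or more, no more than 30% mitochondrial counts (37 genes), and 2 or more of Pecam1, Cdh5, Tie1, Egfl7 and Eng at 10 CPM. No doublet caller was run, since cells were sorted singly into wells. No kept TU_EC library shared more than 56.2% of the counts of its rarer genes with another, so none was treated as a repeat. Counts were summed by class (all plates, or each plate) and scaled to CPM, and ratios are of these sums. A class under 3 counts was set to 3 for a ratio. Genes at 2 CPM or more over all kept TU_EC cells were tested, without the 4 rule genes. Called means at least 2-fold, and no statistical test was made because cells and plates of 1 sample are not replicates. Named genes reached 50 CPM in the class where they were higher, were detected in 30% or more of its cells, and differed 1.5-fold or more in one direction on each plate with 5 cells of each class. The 12 largest ratios each way were taken (6 each way for the split by Gja5), leaving out unnamed gene models and genes of haemoglobin, antigen receptors, ribosomal proteins and mitochondria. Genes of the 20 gene lists and 10 marker lists could be named too. Gene positions came from GENCODE mouse release 21. Only the ratios and their intervals were tested on simulated data, drawn as Poisson counts of the summed classes without variation between cells. Python 3.11.15, numpy 2.4.6, pandas 2.3.3 and scipy 1.17.1 were used. The members and lists were chosen with earlier results of these data known. In place of a test, 23 alternative settings were computed, 4 of them added after seeing the data. The values of 1 listed gene are not reported here.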

Additional observations from a re-analysis of the deposited data

Results flagged for a closer look

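With 4 plates, a value was flagged where 1 plate stood far from the other 3. Of 44 results examined, 4 were flagged, and chance flags about 1 in 20 groups. The median log2 ratio of the chemokine genes was 1.51 in poolD and between 0.17 and 0.38 on the other plates. The log2 ratio of Pfkl, a glycolytic enzyme gene, was −2.83 in poolA and between −1.88 and −1.74 elsewhere. That of Myc was −8.43 in poolA, where the 12 members had no count and the floor of 3 counts sets the value, and between −1.40 and −0.75 elsewhere. That of Map1s, a microtubule-associated protein gene, was −1.99 in poolB and between −1.53 and −1.46 elsewhere. The plates differ in no way that the labels describe, and the cause was not tested.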

How the results depend on the processing

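The 24 named genes were chosen for a difference on every plate, so that none of their 549 values under 23 alternatives reversed, and 546 stayed at least 2-fold, is largely fixed by the choice. The median of the arterial genes lay between 1.57 and 2.25. With only the 5821 genes at 20 CPM or more tested, 6.13% were at least 2-fold higher and 5.67% (330 genes) lower, against 11.5% and 15.3% of genes at 2 CPM or more. The number of arterial cells was 33 with 3 or more rule genes and 39 with a rule without Hey1. The capillary median was 0.23 with a rule without Hey1 and 0.19 without Dkk2, and the tip cell median was −0.97 with 3 or more rule genes and −0.9998 without Hey1, for which the cause was not tested. Leaving out each plate in turn gave −0.55 to 1.89 for the log2 ratio of Eln (negative without poolC) and −1.16 to 2.78 for Tmem100 (negative without poolB), each set by 1 cell. Mki67 turned to 1.36 without cells with 3 proliferation genes. Size factors moved the median of all genes by 0.08. In the split by Gja5, the arterial median lay between 0.69 and 2.01 under 9 alternatives. No paired analysis was possible because the results come from no test. Each plate holds both classes, and the ratios within plates are given as values. Depth limits low genes most: at 50000 counts, 1 read is 20 CPM, above the 10 CPM that marks a gene as present.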
